A study of Mus musculus with 6 samples.

Results

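The lysosomal gene set examined here comprised digestive enzymes of the lysosome, their activators, lysosomal membrane proteins and the vacuolar proton pump (V-ATPase) in mouse retinal pigment epithelium (RPE) and choroid. Members were taken by gene symbol as 41 listed genes together with each gene whose symbol starts with Atp6v or Atp6ap other than Atp6v0d2, which added 24 V-ATPase genes. Of these 65 genes, among 33924 in the table, 63 reached a mean normalized count of 10 or more and are described. The members below that limit were Atp6v1b1, with a mean normalized count of 3.89, and Atp6v1g3, listed at 0.

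The study depleted rRNA, selected poly(A) RNA and sequenced RPE/choroid from wild-type C57BL/6J mice in 2 groups, young and aged, with 3 samples in each and 2 eyes per sample. Titles and time fields of the samples give 1 to 2 months for young mice. For aged mice the titles give 20 to 24 months and the time field gives 22 to 24 months. The samples are labelled male, whereas the methods of the study describe mice of both sexes and a slightly older young group. The neural retina was peeled away and the pigmented layer scraped from the sclera, and the choroid holds vessels, melanocytes and immune cells beside the RPE.

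The value analysed for each gene is a single mean normalized count that the authors computed over the young and aged libraries together. Values of single mice and separate values for the age groups were not analysed here. The levels below therefore carry no error between mice, no test was run and no difference with age is given. In bulk tissue, more cells of a type and more RNA per cell cannot be told apart. The means summed to 40816668 over all genes. A single count in 1 library added between 0.157 and 0.174 to a mean, depending on the library. Which library had which step is not known, and the authors scaled libraries to total counts, so the number of reads in each is not given by these values.

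Lysosomes are acidic organelles that break down proteins, glycans, sulfated glycans and lipids delivered by endocytosis, phagocytosis and autophagy. The V-ATPase pumps protons into the lumen, where cathepsins, glycosidases, sulfatases and lipid hydrolases work at low pH with the help of small activator proteins. In the eye, RPE cells take up shed photoreceptor outer segments and digest them in lysosomes, and macrophages of the choroid are further cells rich in lysosomal proteases.

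Lysosomal transcripts were abundant in RPE/choroid. The 63 members held 2.21% of the summed counts, with means between 25.5 for Atp6v1c2 and 210608 for Ctsd. Their median mean normalized count was 5192, against 668 over the 18479 genes with a mean of at least 10. Of the 63 members, 55 (87.3%) lay above that median, 36 lay above the 90th percentile of all such genes and 7 lay above the 99th percentile. In absolute terms 19 members had a mean of at least 10000, 35 had one between 1000 and 10000, and only 5 had one under 100. These 5 were Arsb with 88.1, Atp6v1e2 with 86.1, Atp6v0a4 with 33.7, Atp6ap1l with 32.0 and Atp6v1c2 with 25.5. Counts were concentrated in few genes: Ctsd, Psap and Ctsb together held 46.8% of the members' counts, and the 10 most abundant members held 69.7%.

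**Figure D1:**
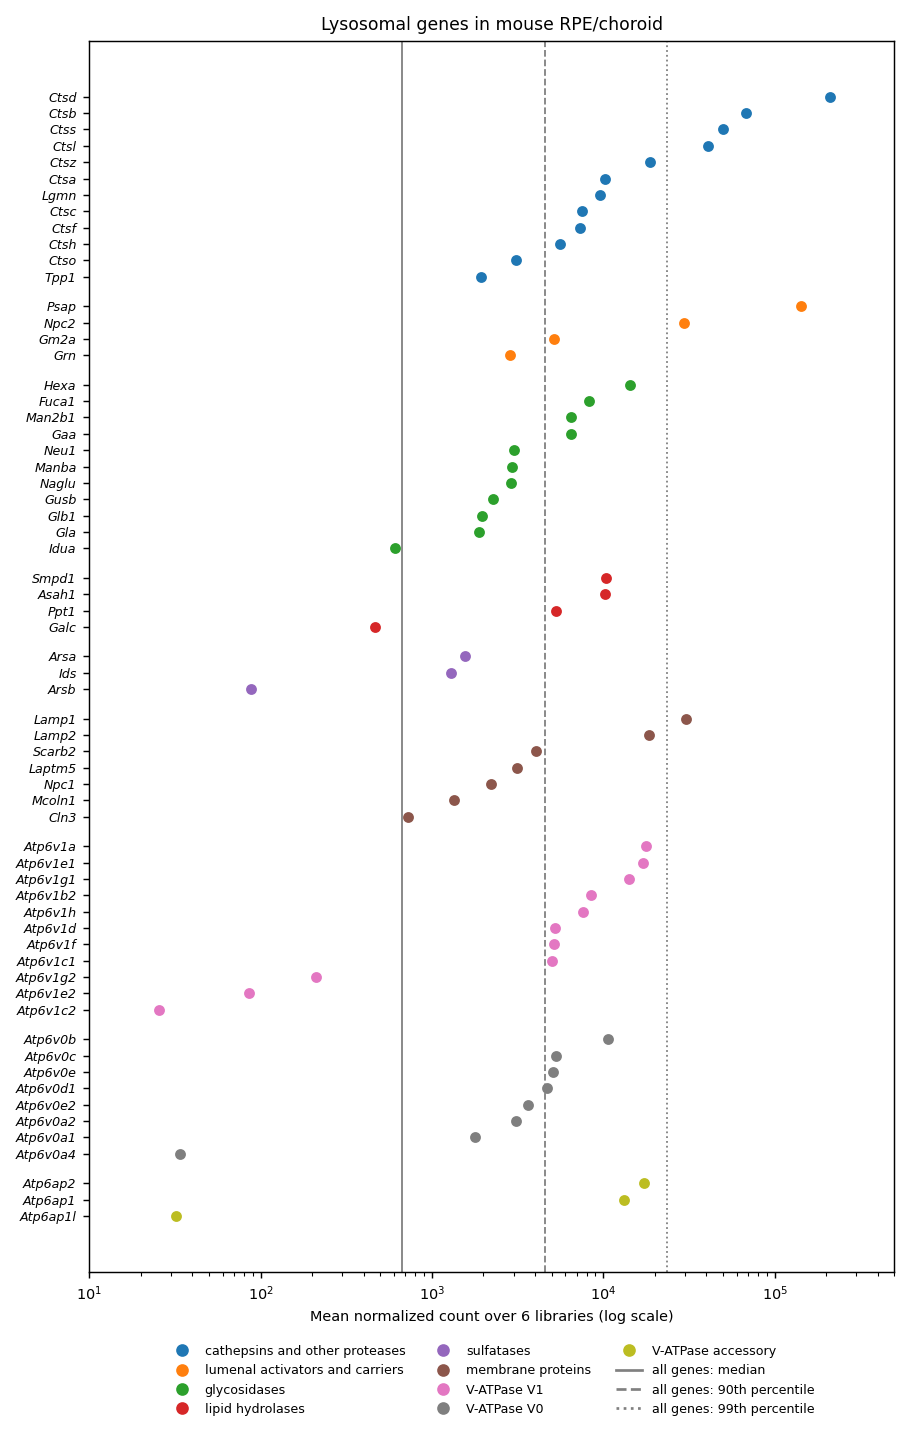
Mean normalized count over the 6 libraries for each of the 63 members (x axis, log scale), grouped by role and ordered by level; each point is 1 gene and grey lines mark the median and the 90th and 99th percentiles of the 18479 genes with a mean of at least 10. Ctsd (210608) and Psap (142136) stand at the top, and 8 members lie below the median of all genes, 5 of them under 100.

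**Figure D2:**
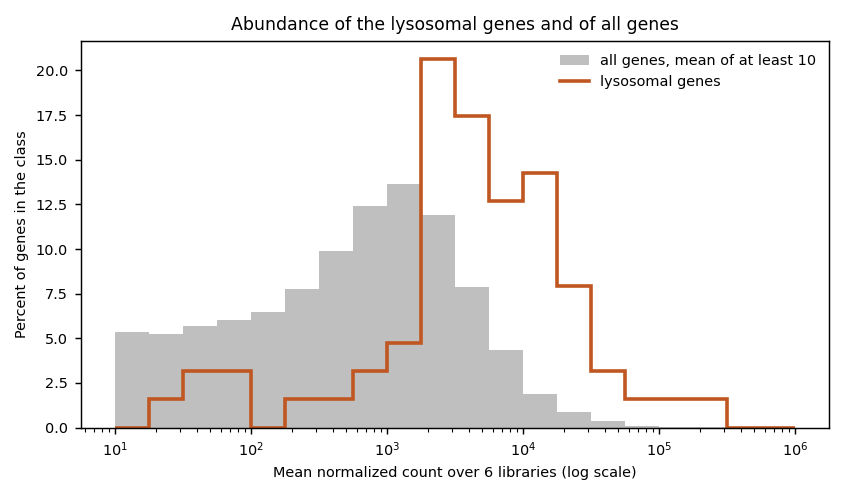
Percent of genes (y axis) in bins of mean normalized count (x axis, log scale), for the 63 lysosomal genes as a line and for all 18479 genes with a mean of at least 10 in grey. The lysosomal genes peak to the right of all genes, with a median of 5192 against 668.

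Read counts grow with transcript length, so genes were compared with each other on a length-scaled level, which is the mean normalized count per kilobase of the longest protein-coding transcript, scaled to sum to 1000000 over all genes with a known length. Over those of the 18479 genes with a known length, the median length-scaled level was 9.90. As the transcript in use is not known, the same level was computed with the median transcript length and with the coding length, and a range over these 3 lengths is given where it matters. That range is a range of assumptions and not a sampling error. The methods state that transcripts were quantified as TPM, which is already per length, before normalized counts were made. Whether the deposited means still scale with length was not tested, and if they do not, the mean normalized counts themselves are the values to compare. On those counts, the fold was 13.4 for Npc2 over Npc1, 4.23 for Ctsd over Ctss, 305 for Psap over Galc and 17.7 for Arsa over Arsb, each outside the range over lengths given below.

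Proteases held the largest summed share of the roles. The 12 genes held 48.2% of the members' counts with a median mean of 9930, below the medians of the 4 activators and carriers (17471) and the 3 accessory V-ATPase genes (13183), and all 12 lay above the median of all genes. Ctsd, which encodes the aspartic protease cathepsin D, is annotated at 142375911 to 142388038 of chromosome 7 in GRCm38, minus strand. It ranked 9 among all genes of the table, with a mean normalized count of 210608 and a length-scaled level of 4359 (range 3271 to 4359). Its annotated transcript shared 36.6% of its words of 50 bases with Gm49369, an annotated gene that overlaps it on the same strand. Counts of this locus could be split between both names if the authors' older annotation also held Gm49369, which was not checked.

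The cysteine cathepsins followed. Ctsb, which encodes the widely expressed cathepsin B, had a mean normalized count of 68311, and Ctss, the cathepsin of antigen-presenting cells, had 49758. On the length-scaled level Ctss (1617) stood above Ctsb (634), and with the coding length this order turned, with 1691 for Ctsb and 1225 for Ctss, as it did on the counts themselves. Ctsz, which encodes the carboxypeptidase cathepsin Z, had a mean of 18713 and a length-scaled level of 572. The order of Ctsb and Ctss thus rested on the assumed transcript.

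Ctsl, which encodes cathepsin L, had a mean of 41095, and its length-scaled level moved most among the proteases, from 293 to 1549, as its longest annotated transcript spans 6168 bases and its median transcript 834. The level of Ctsd was above that of each other protease under all 3 lengths, by between 2.11-fold and 14.9-fold for Ctsl and between 2.70-fold and 3.52-fold for Ctss. Lgmn, the asparaginyl endopeptidase that matures several cathepsins, had a mean of 9628. Ctsa, the carboxypeptidase that protects neuraminidase and beta-galactosidase, had a mean of 10233. Ctsc, which activates granule serine proteases, had 7513, and Ctsf and Ctsh had 7330 and 5617. At the lower end stood Ctso with 3085 and Tpp1, a tripeptidyl peptidase mutated in a childhood neuronal storage disease, with 1947 and a length-scaled level of 24.1. Between Ctsd and Tpp1 the length-scaled levels spanned 181-fold.

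**Figure D3:**
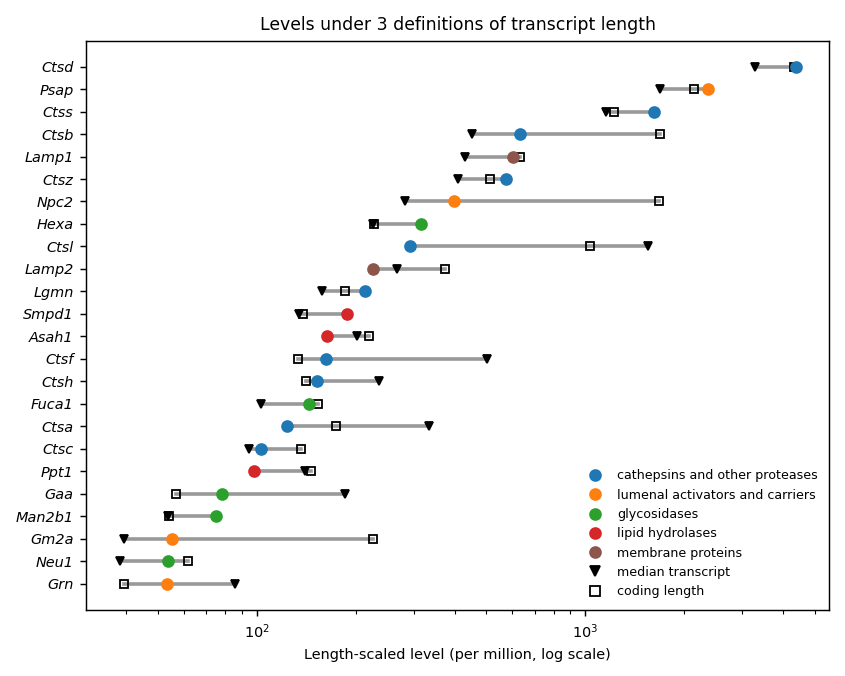
Length-scaled level per 1000000 (x axis, log scale) of the 24 enzymes, activators and membrane proteins with the highest levels; coloured points use the longest protein-coding transcript, triangles the median transcript length and squares the coding length, with a grey line over the 3 values. Ctsd stays at the top in each definition, whereas Ctsl ranges from 293 to 1549 and Npc2 from 284 to 1676.

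Lumenal proteins that help the enzymes were also abundant. Psap encodes prosaposin, the precursor of the saposins that present sphingolipids to their hydrolases, and is annotated at 60277627 to 60302597 of chromosome 10, plus strand. It ranked 12 among all genes, with a mean normalized count of 142136 and a length-scaled level of 2355 (range 1684 to 2355). The enzymes that depend on saposins were far less abundant. Per length, Psap stood 8.33-fold to 14.4-fold above Asah1 (acid ceramidase), 71.9-fold to 120-fold above Arsa (arylsulfatase A) and 314-fold to 441-fold above Galc (galactosylceramidase).

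Npc2, the soluble cholesterol carrier, had a mean of 29749. Its membrane partner Npc1 had 2222, and per length Npc2 stood at least 21.2-fold above Npc1 under each of the 3 lengths. Gm2a, the activator that presents GM2 ganglioside for breakdown, had a mean of 5192, and Grn (progranulin) had 2842. Per length, Psap exceeded Grn by between 19.6-fold and 54.1-fold.

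Glycosidases spanned 41.6-fold per length. The 11 genes had a median mean normalized count of 2926, and 10 of them lay above the median of all genes. Hexa, which acts on GM2 ganglioside, was the most abundant with a mean of 14344 and a length-scaled level of 316. Fuca1 (alpha-fucosidase) followed with 8250, and Man2b1 (alpha-mannosidase) and Gaa (acid alpha-glucosidase, which degrades glycogen) had 6509 and 6460.

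Neu1 (neuraminidase), Manba (beta-mannosidase), Naglu and Gusb (beta-glucuronidase) had means of 3022, 2926, 2893 and 2269. Glb1, the beta-galactosidase whose activity is stained as a marker of senescent cells, had a mean of 1959 and a length-scaled level of 36.0. Per length, Ctsa stood 2.30-fold to 8.72-fold above Neu1 and 3.43-fold to 13.0-fold above Glb1, the enzymes with which it forms a complex. Gla (alpha-galactosidase A) had a mean of 1881. Idua, an iduronidase of heparan and dermatan sulfate breakdown, was the least abundant glycosidase with 611 and 7.61, which is below the median of all genes by both measures.

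Lipid hydrolases spanned 35.3-fold and sulfatases 20.5-fold per length. Smpd1 (acid sphingomyelinase) and Asah1 had means of 10339 and 10301, which cannot be ordered without an error between mice. Ppt1, which removes fatty acids from proteins, had 5322, and Galc, which degrades the main galactolipid of myelin, had 465 and a length-scaled level of 5.35. Among sulfatases Arsa had a mean of 1563, Ids (iduronate sulfatase) had 1295 and Arsb, which acts on dermatan and chondroitin sulfate, had 88.1. Per length, Arsa stood 18.7-fold to 34.1-fold above Arsb, and the 3 sulfatases together held 0.327% of the members' counts.

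Membrane proteins ranged over 60.8-fold per length. Lamp1, a heavily glycosylated protein lining the lysosomal membrane, had a mean of 30513 and a length-scaled level of 603. Its relative Lamp2 had a mean of 18555, and per length Lamp1 exceeded Lamp2 by between 1.61-fold and 2.66-fold. Scarb2 (LIMP-2), a sorting receptor of the lysosomal membrane, had a mean of 4045 and a length-scaled level between 27.1 and 71.0. Mcoln1, a calcium channel of the lysosome, had a mean of 1349, and Cln3, mutated in a juvenile neuronal storage disease, had 721.

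Ctss and Laptm5 are expressed mainly in leukocytes. Laptm5, a membrane protein of blood cell lysosomes, had a mean of 3128 and a length-scaled level of 53.0. Of 7 macrophage markers, each was above the limit of 10, with means from 1014 for Aif1 to 121895 for Lyz2 and a median length-scaled level of 53.6. Per length, Ctss stood 12.0-fold to 30.5-fold above Laptm5. How much of the Ctss, Ctsd or Ctsb signal came from macrophages was not tested.

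The markers of the labelled tissue were present. Of 7 RPE markers, 6 had means between 28192 for Rdh5 and 397586 for Ttr, and Best1, a chloride channel of the RPE, had 81.8. Of 5 melanocyte markers, which the RPE largely shares, the means lay between 25408 and 256984. Endothelial markers had means from 717 to 7369. The rod marker Sag (46603), skeletal muscle markers (35123 to 48944) and the red cell gene Hba-a1 (37845) were also abundant, and their part in the values of the members was not tested.

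The V-ATPase is built from a cytosolic V1 sector, which splits ATP, and a membrane-bound V0 sector, which conducts protons. The 11 V1 members above the limit held 8.97% of the members' counts, the 8 V0 members held 3.82% and the 3 accessory members held 3.38%. The most abundant gene of each subunit had a mean between 3101 (Atp6v0a2) and 17819 (Atp6v1a). In the V1 sector the catalytic subunit gene Atp6v1a had a mean of 17819, Atp6v1e1 of the peripheral stalk had 17051 and its stalk partner Atp6v1g1 had 14077. Atp6v1b2 had 8439, Atp6v1c1 had 5043, the regulatory subunit gene Atp6v1h had 7667, and Atp6v1d and Atp6v1f of the central stalk had 5242 and 5155. Summed over paralogs, subunit E had the highest level in V1 with the longest and the median transcript length (575 and 795), and subunit G had it with the coding length (1016).

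In the V0 sector Atp6v0b, which encodes the c″ proteolipid of the rotating ring, had a mean of 10695 and a length-scaled level of 471. Atp6v0c, which encodes the more numerous c proteolipid of that ring, had 5312 and 198, but 32.3% of its words of 50 bases are shared with the pseudogene Atp6v0c-ps2, so its counts are uncertain. Atp6v0d1 of the central stalk had 4727. Subunit a, which lines the proton path and directs the pump to its membrane, had the lowest summed level in V0 under all 3 lengths, between 33.3 and 48.6, or between 59.0 and 77.7 with the a3 gene Tcirg1 counted. The accessory genes Atp6ap2, also known as the prorenin receptor, and Atp6ap1 had means of 17243 and 13183.

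**Figure D4:**
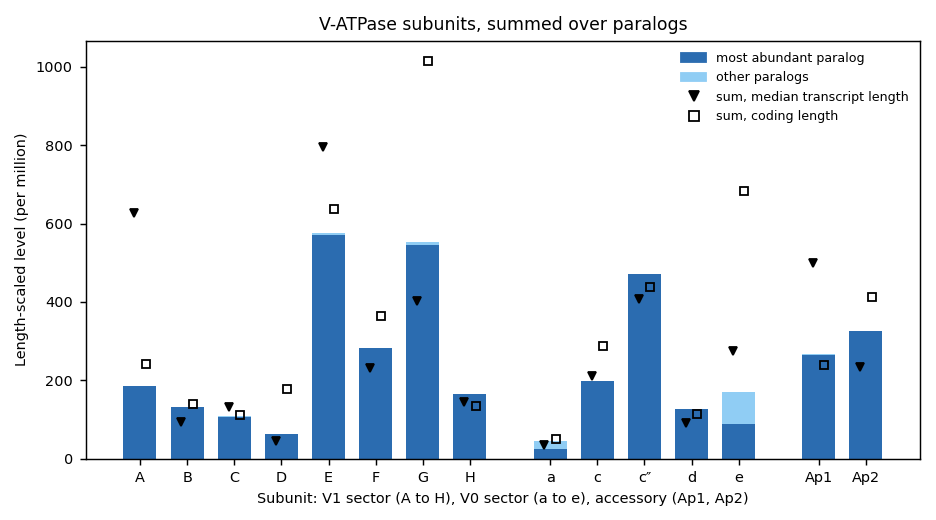
Length-scaled level per 1000000 (y axis, from 0) of each V-ATPase subunit, summed over its paralogs (bars, longest protein-coding transcript), with the sums under the median transcript length (triangles) and the coding length (squares). In most subunits a single member paralog fills the bar, and subunits a and e are split between paralogs. Tcirg1 of subunit a and Atp6v0d2 of subunit d are not members and are left out of the bars.

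Paralogs of a subunit differed widely in abundance. Of the length-scaled level of subunit B, 99.9% came from Atp6v1b2, the form found in most tissues, and Atp6v1b1, the form of acid-secreting kidney and inner ear cells, had a mean of 3.89. Atp6v1c1 held 99.3% of subunit C against Atp6v1c2. Atp6v1e1 held 99.5% of subunit E against Atp6v1e2, which is known from testis. Atp6v1g1 held 98.9% of subunit G, Atp6v1g2, known from neurons, held 1.09% with a mean of 209, and Atp6v1g3 was listed at 0. Atp6ap1 held 99.6% of the level it shares with its relative Atp6ap1l. Each of these 5 shares was at least 96.9% under every length tried. Of the words of Atp6v1g1, 19.2% are shared with the annotated gene Gm13453.

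The a and e subunits were mixed. Atp6v0a2 had a mean of 3101 and Atp6v0a1 had 1790, and they held 55.9% and 43.1% of the level of the 3 member paralogs. Atp6v0a4, the form of kidney and inner ear, held 0.984%. Tcirg1, which encodes the form of osteoclasts and macrophages and is not a member by symbol, had a mean of 2216. With it counted, Atp6v0a2 held 32.9%, Tcirg1 41.3% and Atp6v0a1 25.3% of subunit a, and with the coding length Atp6v0a2 (42.8%) stood above Tcirg1 (31.4%). Atp6v0e (mean 5110) held 47.3% and Atp6v0e2 (mean 3625) 52.7% of subunit e with the longest transcript, and the order turned with the median transcript length, at 75.6% and 24.4%. Atp6v0d2, the d form of osteoclasts that the rule leaves out, had a mean of 1712, so that Atp6v0d1 held 81.1% of the level of both, or 71.2% with the median transcript length and 73.4% with the coding length.

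Other genes of the pathway were compared as a fixed list of 35, of which 34 had a mean of at least 10. The exception was Ctse, a cathepsin of stomach and lymphoid tissue, with 8.82. Their median length-scaled level was 50.9 and with the longest transcript none exceeded 221, the level of the tetraspanin Cd63. High means were 8479 for Lipa (acid lipase) and 8226 for M6pr (a mannose-6-phosphate receptor that sorts lysosomal enzymes). Ctsk, the collagen-degrading cathepsin of osteoclasts, had 4494, and per length Ctss stood 10.7-fold to 12.4-fold above it. Among transcription factors that activate lysosomal genes or are related to those that do, Mitf had a mean of 5647, Tfeb (listed as Tcfeb) 1272, Tfe3 (Tcfe3) 516 and Tfec (Tcfec) 125.

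These factors bind E-boxes, short DNA words around the core CACGTG, and the lysosomal form of the E-box, known as the CLEAR element, holds the word TCACGTGA. RefSeq promoters of GRCm38.p6, from 250 bases before to 50 bases after a start, were matched by symbol for 53 of the 63 members. Asah1, Atp6ap1l, Atp6v0a2, Atp6v1b2, Atp6v1c1, Atp6v1g1, Atp6v1h, Ctsb, Ctsh and Npc1 were not matched. The word TCACGTGA, which reads the same on both strands, stood in a promoter of 8 of the 53 members (15.1%) and of 304 of 27025 genes with a promoter (1.13%). Among genes matched by symbol with a mean of at least 10, the share was 1.84%. The core CACGTG stood in 32.1% of the members and 8.09% of all genes. A match is a description of the letters and shows no binding.

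The windows around this word are shown for the 8 members, because they span a protease of very high abundance, membrane proteins, a glycosidase and pump subunits. Capitals mark TCACGTGA, the gene's strand is read 5′ to 3′, and the first of the words is shown for Ctsa and for Gla, which each hold 2 of them.
Ctsd: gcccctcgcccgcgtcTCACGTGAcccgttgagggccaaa
Ctsa: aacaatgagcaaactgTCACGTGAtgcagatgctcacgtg
Cln3: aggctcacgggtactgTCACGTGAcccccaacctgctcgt
Mcoln1: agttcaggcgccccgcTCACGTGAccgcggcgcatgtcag
Gla: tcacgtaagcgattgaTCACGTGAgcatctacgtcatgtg
Atp6v0d1: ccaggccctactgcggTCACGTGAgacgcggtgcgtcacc
Atp6v0e: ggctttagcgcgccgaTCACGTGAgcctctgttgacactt
Atp6v1a: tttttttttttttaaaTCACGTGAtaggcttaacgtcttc

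These windows lie at chr7:142387903-142387942 (minus strand) for Ctsd, chr2:164833744-164833783 (plus) for Ctsa, chr7:126583335-126583374 (minus) for Cln3 and chr8:3500457-3500496 (plus) for Mcoln1. Those of Gla, Atp6v0d1, Atp6v0e and Atp6v1a lie at chrX:134601210-134601249 (minus), chr8:105566045-105566084 (minus), chr17:26676382-26676421 (plus) and chr16:44139368-44139407 (minus). Measured from the RefSeq start of each promoter, the centre of the word lay 95 bases upstream in Ctsd, 42 bases upstream in Mcoln1 and within 10 bases of it in Atp6v0d1, Atp6v0e and Ctsa. These starts differ from the ends of some GENCODE genes, and the windows of Ctsd, Ctsa, Cln3, Mcoln1, Atp6v0e and Atp6v1a lie inside the GENCODE gene. The window of Atp6v0d1 crosses the end of its GENCODE gene, and that of Gla lies outside its gene. Members with the word had a median mean normalized count of 4919 and members without it 5192, and the median length-scaled levels were 102 and 75.0.

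Few of the members share much sequence with other genes, but Ctsd, the most abundant member, is among those that do. In 56 of the 63 members at least 99% of the words of 50 bases of the longest transcript occurred in no other annotated gene, and in 4 members under 90% did. These 4 were Ctsd (63.4%), Atp6v0c (67.6%), Atp6v1g1 (80.9%) and Atp6v1f (87.5%). An annotated gene overlaps 10 members on the same strand and 26 on the other strand. The members were spread over 20 chromosomes, with at most 6 on a single chromosome, chromosome 8.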

How the data were processed

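Poly(A)-selected RNA of RPE/choroid was measured in 3 young and 3 aged mice. As the study's methods describe, the authors trimmed read pairs with BBDuk, aligned them with STAR to Ensembl GRCm38 transcripts, quantified transcripts as TPM with Sailfish, turned these into normalized counts by total count and compared ages with DESeq2 (version not given in the sources used here). The deposited table holds, for each gene, a signal that is the authors' mean normalized count over the 6 libraries, and 5 columns of the authors' own comparison of young and aged mice (log2 fold change, standard error, Wald statistic, p-value, adjusted p-value). These 5 columns were not used. A planned limma fit of age needs values per library and was not run, so no test is reported.

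Members and lists were chosen with earlier results of these data known. Genes were described where the mean was at least 10. Transcript and coding lengths came from GENCODE M21 (GRCm38), matched by symbol or synonym for 91.4% of genes, which hold 98.7% of the counts. Length-scaled levels are defined with the results. Simulated counts were drawn and scaled with the same lengths, which checks the arithmetic only. Neither the choice of length nor the scaling of the deposited means with length was tested by it. Roles were assigned by hand. Named are the 4 highest and the lowest of each role, all V-ATPase paralogs, Laptm5, Ctss and members under or near the limit; further members were added after their values were seen. Hbb-bs of the red cell list was not matched, and values of some listed genes are not reported here. Python 3.11.15, numpy 2.4.6, pandas 2.3.3 and matplotlib 3.10.9 were used. Alternatives were other limits, other lengths, no length and other E-box words.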

Additional observations from a re-analysis of the deposited data

How the results depend on the processing

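No paired analysis was possible because the values analysed are means over all 6 libraries. For the same reason the planned age fit, leaving out replicates, other pseudocounts and a replicate block were not run, and coding lengths came from annotated coding sequences (chosen after seeing the data) in place of RefSeq proteins. The number of members described was 63 with a limit of 5 or 20 and 58 with a limit of 100. Their share of 2.21% was 1.71% per length and 1.69% without Ctsd. With the median transcript length the shares within a subunit were 54.7% for Atp6v0a2, 75.6% for Atp6v0e, 99.5% for Atp6v1c1, 99.7% for Atp6v1e1, 96.9% for Atp6v1g1 and 99.7% for Atp6ap1. With no length they were 63.0%, 58.5%, 99.5%, 99.5%, 98.5% and 99.8%, and 99.95% for Atp6v1b2. With the coding length they were 62.5%, 60.3%, 99.6%, 99.5%, 98.5% and 99.7%, and 99.95% for Atp6v1b2. With Tcirg1 counted (also chosen after seeing the data), Atp6v0a2 held 32.9%.

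Median length-scaled levels with the longest transcript were 188 for proteases, 226 for activators and carriers, 49.7 for glycosidases, 131 for lipid hydrolases, 11.5 for sulfatases, 37.9 for membrane proteins, 132 for V1, 84.6 for V0 and 265 for accessory genes. In the same order they were 372, 185, 35.5, 138, 14.3, 83.0, 130, 79.1 and 233 with the median transcript length, and 180, 951, 37.5, 142, 19.7, 71.0, 139, 192 and 239 with the coding length. These changes follow from the lengths alone. The promoter share of 15.1% was 32.1% with the core CACGTG and 22.6% with GTCACGTG. Without values per mouse, small differences between genes cannot be judged.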

Other observations

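The word GTCACGTG, an E-box core extended on one side, stood in a promoter of 12 of the 53 matched members (22.6%). It stood in 2.55% of all genes with a promoter and in 4.14% of those with a mean of at least 10. The 12 members were Arsa, Atp6v0b, Atp6v0d1, Cln3, Ctsa, Ctsd, Gla, Glb1, Lamp1, Lgmn, Mcoln1 and Naglu. Members of the V1 sector (7 matched), the accessory V-ATPase genes (2 matched), the lipid hydrolases (3 matched) and the activators and carriers (4 matched) held none. For groups this small, holding none is usual at a share of 4.14% and sets no role apart. The core CACGTG was present in 17 members (32.1%, against 10.9% of genes with a mean of at least 10). Among them were 5 of 10 matched proteases, 4 of 11 glycosidases and 1 of 7 V1 members. Psap, Npc2, Gm2a and Grn held none in these windows, which is also usual for 4 genes at a share of 10.9%. Members with the core had a median length-scaled level of 124 and those without it 59.2. For GTCACGTG the medians were 86.6 and 78.3, and the median mean normalized counts were 3810 with it and 5192 without it, all given as a description without a test.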
